A study of Mus musculus with 5 samples.

Results

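Aminoacyl-tRNA synthetases are the enzymes that join each amino acid to its tRNA. Their messages were read in 5 libraries of mouse haematopoietic stem cells, 3 labelled Ythdf3-/- and 2 labelled WT. The members are the rows of the count table whose symbol has the synthetase form (a 1-letter amino acid code followed by ars, with or without a suffix 1 or 2), together with Farsa, Farsb and Eprs. In all 37 of the 35976 gene rows met this rule with at least 1 count, 20 for enzymes of the cytosol and 17, with the suffix 2, for enzymes of the mitochondrion. All animals were C57BL/6 mice, whose age is not in the labels, and the labels do not describe the knockout allele. Each library was made by Smart-seq2, which amplifies full-length cDNA without strand or molecule identifiers, from 30 bone marrow cells that lacked lineage markers and CD34 and carried Sca-1, c-kit and CD150. By the series text each sample is a different mouse, but that text counts 2 knockouts and 3 wild types where the labels give the reverse.

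Ythdf3, the deleted gene, had 2, 339 and 366 counts in Ythdf3-/- libraries 1, 2 and 3 as labelled, against 20 and 29 in WT libraries 1 and 2, so the gene's own counts go against the labels. Every direction given here is therefore one between labels, and libraries are listed in the order 1, 2, 3 and 1, 2. Total counts ran from 6357862 to 9076806 under the Ythdf3-/- label, against 16650134 and 8968162 under the WT label, so that 1 count was worth between 0.0601 and 0.157 CPM (counts per 1000000 counts of the library). All 10 HSC marker genes that were looked up had at least 1 count in every library, but 3 of them lay under 1 CPM in some library. Slamf1 had 1 count in the library labelled WT 2, and Fgd5 had 2 and 5 counts in those labelled Ythdf3-/- 1 and 3. Ctnnal1 had 5 counts in the library labelled Ythdf3-/- 1. The summed level of the 10 was 1490.3, 2248 and 2510.2 CPM under the Ythdf3-/- label, against 1994 and 1322 CPM under the WT label. The 12 erythroid markers summed to 37701 CPM in the library labelled Ythdf3-/- 1 and to between 1973 and 3211 CPM in the other 4. The 14 genes of mitosis and DNA replication summed to 1156 CPM there and to 1776 CPM in the library labelled WT 2, against 255 to 329 CPM in the remaining 3.

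Protein synthesis needs every amino acid to be charged on its tRNA, and each cell runs that step in 2 places. The cytosolic enzymes serve the nuclear-encoded messages, and several of them sit in a multisynthetase complex held by the scaffold proteins AIMP1, AIMP2 and EEF1E1. The mitochondrial enzymes are encoded in the nucleus and imported, and they serve the few proteins made from mitochondrial DNA. Lysyl- and glycyl-tRNA synthetase are made for both places from 1 gene each, Kars and Gars. Haematopoietic stem cells are known for a low rate of protein synthesis. When an amino acid is short, uncharged tRNA activates the kinase GCN2, and translation of the factor ATF4 then induces genes that include cytosolic synthetases.

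The induction of synthetases by ATF4 runs through a composite site for ATF4 and C/EBP factors whose core is TGATGNAA. The promoters that hold it are shown because they are the synthetase genes whose sequence carries a match for that response. RefSeq promoters (build GRCm38.p6, which is mm10; 250 bases before to 50 after the start of transcription) were matched for 27 of the 37 genes. The core was found, on either strand, in 5 of 13 cytosolic promoters and in 0 of 14 mitochondrial ones. Among all 27025 genes with a listed promoter 4.51% held it, and among all 32851 promoters 3.97% did. The E-box CACGTG, the site bound by MYC and MAX, was in 4 of the 13 cytosolic promoters (Aars, Farsb, Iars and Tars) and in 1 of the 14 mitochondrial ones (Ears2), against 8.09% of genes and 7.15% of promoters. The 2 motifs do not overlap each other in these windows. The promoters with the TGATGNAA core follow from base -150 to base 30, 5′ to 3′ on the strand of the gene, with matches to either motif in capitals, whichever strand the match is on.
Aars (chr8:111033692-111033871, plus strand): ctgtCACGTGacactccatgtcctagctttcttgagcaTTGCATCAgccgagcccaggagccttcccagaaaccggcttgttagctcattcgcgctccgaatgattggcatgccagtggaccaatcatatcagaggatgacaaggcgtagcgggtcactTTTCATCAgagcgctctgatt
Gars (chr6:55037851-55038030, plus strand): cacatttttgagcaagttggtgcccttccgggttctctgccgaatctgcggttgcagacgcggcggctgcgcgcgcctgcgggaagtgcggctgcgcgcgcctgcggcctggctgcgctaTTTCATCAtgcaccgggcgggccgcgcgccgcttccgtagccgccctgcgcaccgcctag
Iars (chr13:49681980-49682159, plus strand): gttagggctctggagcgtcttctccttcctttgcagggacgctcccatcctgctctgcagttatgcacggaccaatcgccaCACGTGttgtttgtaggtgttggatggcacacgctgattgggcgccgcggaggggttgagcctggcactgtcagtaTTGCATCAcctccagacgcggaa
Tars (chr15:11399629-11399808, minus strand): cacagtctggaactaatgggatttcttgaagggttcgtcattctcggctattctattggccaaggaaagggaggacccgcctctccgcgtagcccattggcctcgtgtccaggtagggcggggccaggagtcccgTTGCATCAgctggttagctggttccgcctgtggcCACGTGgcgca
Yars (chr4:129189753-129189932, plus strand): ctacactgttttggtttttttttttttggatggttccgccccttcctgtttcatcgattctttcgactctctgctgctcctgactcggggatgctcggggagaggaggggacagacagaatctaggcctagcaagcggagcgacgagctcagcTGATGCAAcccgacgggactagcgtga
The matches began at bases -112 and 10 in Aars, -30 in Gars, 8 in Iars, -15 in Tars and 4 in Yars, counted from 1 at the first transcribed base. A match of letters is a description of the window and does not show that a factor binds there.

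Cytosolic messages drew more reads than mitochondrial ones. The cytosolic means over the 5 libraries had a median of 94.99 CPM and ran from 22.0 (Aars) to 328 CPM (Kars). The mitochondrial enzymes had a median of 27.0 CPM and ran from 5.24 (Vars2) to 375 CPM (Lars2). Per kilobase of exon, which allows for the length of the message, the medians were 38.2 CPM for the cytosolic and 10.1 CPM for the mitochondrial class. A mean of at least 100 CPM was reached by 9 of 20 cytosolic genes and by 2 of 17 mitochondrial ones, Lars2 and Tars2. All 37 passed the filter on low counts and were tested.

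**Figure D1:**
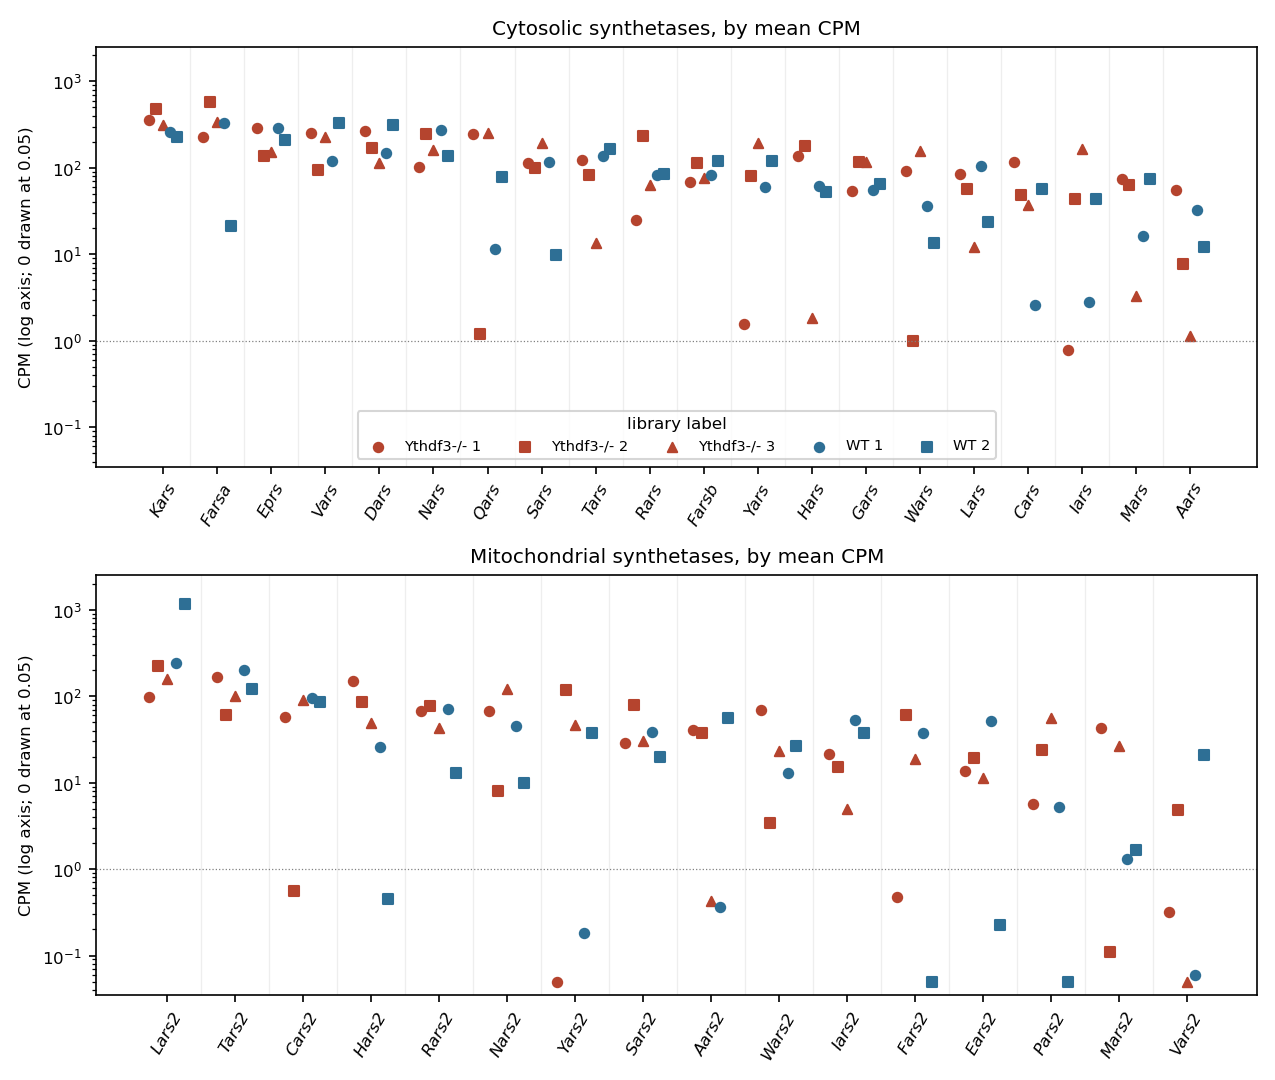
Level of each synthetase message in each library (CPM on a log axis, a value of 0 drawn at 0.05), with cytosolic enzymes above and mitochondrial enzymes below, each ordered by mean level; red marks are libraries labelled Ythdf3-/- and blue marks those labelled WT. The points of Kars span 2.11 times from lowest to highest, while 9 of the 16 mitochondrial genes shown have at least 1 library below the dotted line at 1 CPM.

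Only 6 cytosolic genes were even across the libraries, with the highest library under 3 times the lowest. Kars (lysine; chromosome 8, 111993443 to 112011323) had 359.6, 482 and 311 CPM under the Ythdf3-/- label and 259 and 228 CPM under the WT label. Every library labelled Ythdf3-/- lay above both labelled WT, with a log2 fold change of 0.57 (SE 0.38). Eprs (chromosome 1, 185363044 to 185428360), a fusion enzyme that charges both glutamate and proline, had 289.6, 136 and 154 CPM against 290.3 and 212 CPM. Gars (glycine) had 53.9, 116 and 116 CPM against 55.4 and 65.9 CPM. For both genes the groups overlapped. Farsb (phenylalanine, beta subunit) had 69.5, 114 and 76.4 CPM against 83.7 and 119.9 CPM, also with overlap. Dars (aspartate), with libraries from 115 to 312 CPM, and Nars (asparagine), with libraries from 103 to 273 CPM, complete the even genes.

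Other cytosolic genes were nearly missing from some libraries and well read in others. Qars (glutamine; chromosome 9, 108507706 to 108515941) had 247, 1.21 and 254 CPM under the Ythdf3-/- label, against 11.5 and 79.2 CPM under the WT label. Its 1573, 11 and 1784 counts show that the library labelled Ythdf3-/- 2 stood far below the other 2 of its label. Wars (tryptophan) had 588, 9 and 1086 counts against 596 and 122, and was low in the same library. Hars (histidine) had 864, 1630 and 13 counts against 1038 and 468. Yars (tyrosine) had 10, 731 and 1360 counts against 1000 and 1085, and was low in the library labelled Ythdf3-/- 1. Iars (isoleucine) had 5, 393 and 1173 counts against 47 and 390, so that it was low under both labels. A processed pseudogene, Gm4849, matches 1590 of 1656 aligned bases of the Iars coding sequence, and the sharing of reads with it was not tested. A range of at least 10-fold was seen in 11 of 20 cytosolic genes, and one of at least 100-fold in 4 (Iars, Qars, Wars and Yars). In addition to those named, Aars (alanine), Cars (cysteine), Mars (methionine), Sars (serine), Tars (threonine) and Farsa (phenylalanine, alpha subunit) were among the 11. Vars (valine), Lars (leucine) and Rars (arginine) lay between, with ranges of 3.52, 8.55 and 9.23 times. Which library was low differed from gene to gene: 6, 4 and 6 of the 20 genes were lowest in the libraries labelled Ythdf3-/- 1, 2 and 3, and 1 and 3 in those labelled WT 1 and 2.

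Of the mitochondrial enzymes, 0 of 17 kept the highest library under 3 times the lowest. A range of at least 10-fold, or a library with 0 counts, was seen in 14 of 17 (82.4%), beside 58.5% of tested genes within the same range of mean CPM. The cytosolic share was 55.0%, beside 45.1% of tested genes within the cytosolic range of mean CPM and 59.3% of all genes tested. These ranges share their limits with the classes but are not matched in level. The compared genes had a median mean CPM of 41.0 within the mitochondrial range, against 27.0 for the mitochondrial enzymes. Within the cytosolic range it was 60.6, against 94.99 for the cytosolic enzymes. The difference between the classes was not tested. At least 1 library lay under 1 CPM for 10 of 17 mitochondrial genes and for 2 of 20 cytosolic ones (Iars and Wars), against 45.9% of all genes tested. The classes also differ in level, and among tested genes within the CPM range of the mitochondrial enzymes 43.3% had such a library, against 25.6% within the range of the cytosolic ones. The steadiest, Tars2 (threonine), had 166, 60.2 and 102 CPM under the Ythdf3-/- label, against 199 and 120.3 CPM under the WT label, a log2 fold change of -0.63 (SE 0.62). Sars2 (serine) and Rars2 (arginine) followed with ranges of 3.99 and 5.95 times. Cars2 (cysteine), next in mean level after Lars2 and Tars2, had 57.1, 0.551 and 91.4 CPM against 95.4 and 84.9 CPM, and so was near 0 in 1 library alone. Aars2 (alanine) and Ears2 (glutamate) were near 0 in other libraries, with 255, 344 and 3 counts against 6 and 506 for Aars2. Ears2 had 87, 177 and 80 counts against 863 and 2. The ranges of Nars2 (asparagine) and Wars2 (tryptophan) were 15.2 and 20.1 times. At least 50% of the summed CPM came from 1 library for 9 mitochondrial and 3 cytosolic genes (Iars, Wars and Aars). At this input, fewer cells with a message and less of it per cell cannot be told apart. Without molecule identifiers, neither can be told apart from uneven amplification.

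**Figure D2:**
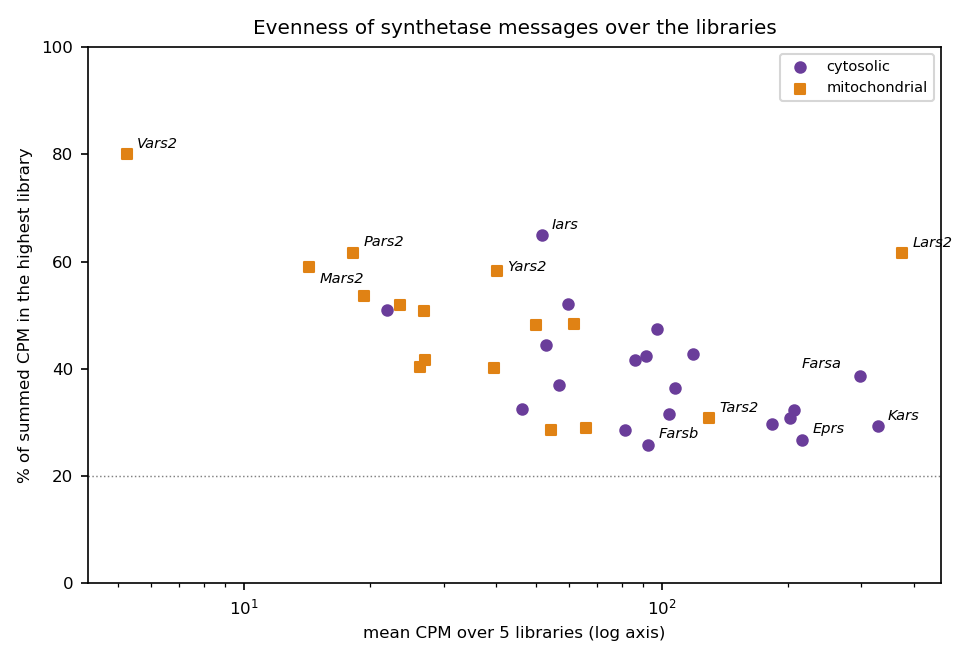
Share of a gene's summed CPM that came from its highest library, against its mean CPM (log axis), for 20 cytosolic genes (circles) and 16 mitochondrial genes (squares); equal levels in all libraries would give the dotted line. Vars2 stands highest at 80.1%, and Lars2 has 61.6% in 1 library although it has the highest mean level.

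A count of 0 in some library was found for mitochondrial members alone, among them Yars2, Fars2, Vars2 and Pars2. Yars2 (tyrosine) had 0, 1061 and 326 counts under the Ythdf3-/- label, against 3 and 335 under the WT label. Fars2 (phenylalanine) had 3, 557 and 132 counts against 625 and 0, and was thus near 0 under either label. The 0 of Yars2 allows up to 0.472 CPM in that library, that of Vars2 up to 0.428 CPM in the library labelled Ythdf3-/- 3, and those of Fars2 and Pars2 allow up to 0.335 CPM in the library labelled WT 2, by counting error only. Vars2 (valine) had 2, 44 and 0 counts against 1 and 188, and lay under 5 CPM in 4 libraries. For Yars2, Fars2 and Vars2 the groups overlapped.

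No synthetase passed the test between the labels. Across all genes the edgeR quasi-likelihood test with Benjamini-Hochberg adjustment called 0 of 11146 (0%) at an adjusted p of 0.05, as did limma voom, and DESeq2 called 259. At an unadjusted p under 0.05 edgeR had 541 genes (4.85%). Among the synthetases 0 of 37 passed with an adjusted p and 1 had an unadjusted p under 0.05, Lars2, in the direction where 2.75% of all genes tested did. The groups did not overlap for 6 of 37 (16.2%), against 20.7% of all genes tested. Kars, Hars2 and Pars2 lay higher in all libraries labelled Ythdf3-/- (9.74% of all genes did) and Tars, Iars2 and Lars2 lower (11% did). The fitted log2 fold change was above 0 for 19 of the 37 and below 0 for 18, beside 52.2% of all genes below 0. Its median was 0.12 over the 20 cytosolic genes, with a range from -1.13 to 1.76. Over the 17 mitochondrial genes the median was 0.47, with a range from -2.70 to 3.82, and over all genes tested it was -0.063. The cytosolic median became -0.17 with limma voom, and the mitochondrial one became -0.64 without the library labelled Ythdf3-/- 1.

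**Figure D3:**
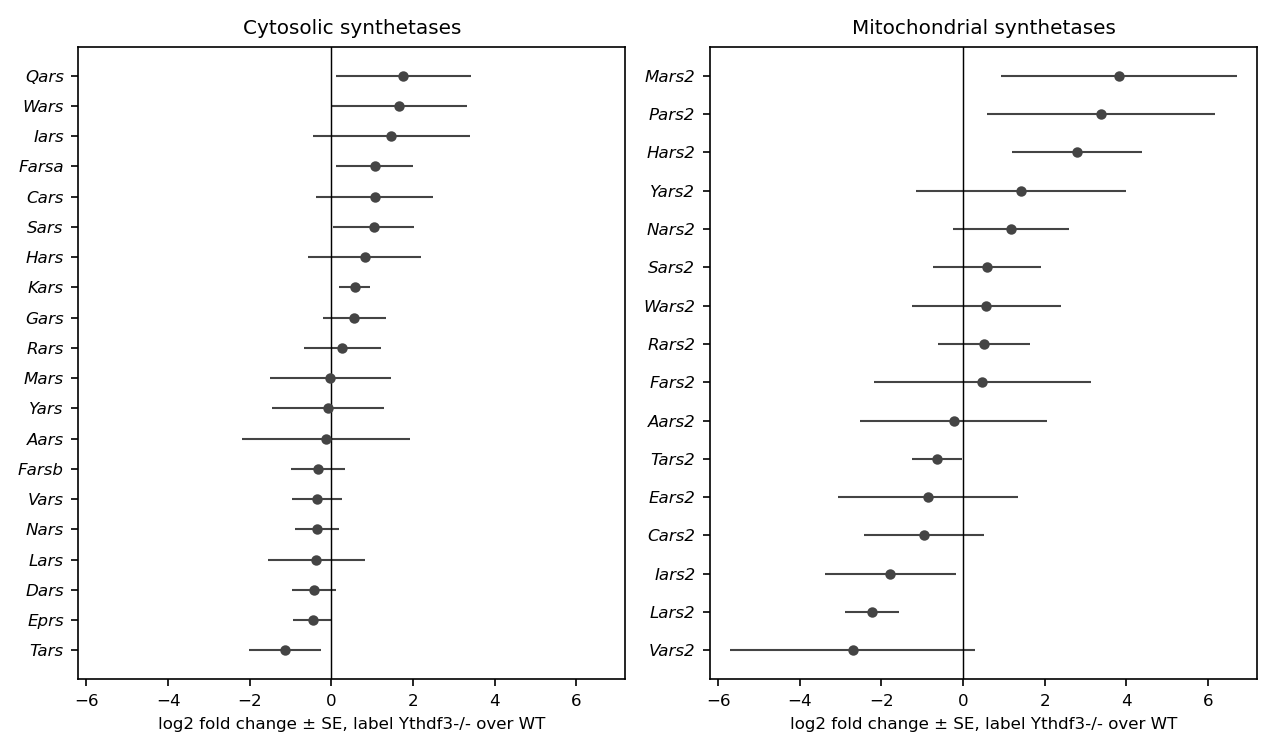
Log2 fold change (edgeR, label Ythdf3-/- over WT) with its SE for each of 20 cytosolic and 16 mitochondrial synthetase genes, ordered by size. The bars of 25 of these 36 genes cross 0, and Lars2, at -2.23, has an SE of 0.66, against a median SE of 1.71 over the 16 mitochondrial genes.

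Lars2 (leucine, mitochondrial; chromosome 9, 123366927 to 123462666) had the smallest p of the 37. It stood at 98.5, 225 and 159 CPM under the Ythdf3-/- label, against 239 and 1156 CPM under the WT label. The groups did not overlap, but the library labelled WT 1 lay close to the highest of the other label. The means were 161 ± 63.3 CPM (SD, n = 3) under the Ythdf3-/- label and 697 ± 648 CPM (SD, n = 2) under the WT label. The log2 fold change was -2.23 (SE 0.66, edgeR adjusted p = 0.964). DESeq2 called it (adjusted p = 0.0232), as did edgeR with no filter on low counts (adjusted p = 0.00183), and the adjusted p ran from 0.00183 to 1 over all alternatives tried. With WT library 2 left out the log2 fold change was -0.60, and with WT library 1 left out it was -2.97.

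Other rows were high beside Lars2 in the library labelled WT 2. The message took 0.116% of counts there and between 0.00985% and 0.0239% elsewhere. The row LOC101056014, which was chosen after its values were seen, took 1.58%, 1.77% and 1.82% of counts under the Ythdf3-/- label, against 1.49% and 5.57% under the WT label. RefSeq lists that identifier as the long noncoding RNA AY036118 on chromosome 17, where its span overlaps a pseudogene named for 18S ribosomal RNA. Per 1000 counts of it Lars2 had 6.24, 12.7 and 8.75 counts under the Ythdf3-/- label, against 16.04 and 20.7 under the WT label, so the pair did not keep a fixed ratio. In the 3′ UTR of the Lars2 mRNA, 71 of 72 bases match Gm15564, an RNA whose annotated type is antisense. The annotation lists no gene that shares exon bases with Lars2, and the strand of the match was not recorded. Gm15564 had 14, 14 and 20 counts under the Ythdf3-/- label, against 64 and 170 under the WT label. The part of such shared sequence, and of the cell cycle genes that were high in the same library, in the Lars2 value was not tested.

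The other mitochondrial genes with the smallest p had wide errors. Hars2 (histidine; chromosome 18, 36783008 to 36792562) had 149, 84.5 and 48.5 CPM under the Ythdf3-/- label, against 25.6 and 0.446 CPM under the WT label. Its log2 fold change of 2.79 (SE 1.58) was 1.83 with WT library 2 left out and 7.55 with WT library 1 left out. Hars2 and Hars lie head to head and share 195 exon bases, which counts without strand cannot assign. Pars2 (proline) had 36, 218 and 394 counts against 87 and 0. Its log2 fold change of 3.38 (SE 2.79) was 2.43 with WT library 2 left out and 10.76 with WT library 1 left out. Iars2 (isoleucine) had 136, 136 and 35 counts against 884 and 333 (log2 fold change -1.79, SE 1.60), and shares 2148 exon bases with other annotated genes. Mars2 (methionine) had 269, 1 and 184 counts against 22 and 15, so that 1 library labelled Ythdf3-/- lay below both labelled WT. Its log2 fold change was 3.82 (SE 2.88), 1.64 with limma voom and 0.78 with the replicate number as a block. The library labelled Ythdf3-/- 3 has no partner under that block and adds nothing to the last value. None of the 4 passed the edgeR test (adjusted p = 0.9998 each).

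Among cytosolic genes the smallest p belonged to Kars, Tars, Farsa, Qars and Sars, with an edgeR adjusted p of 0.9998 for each. Tars (threonine; chromosome 15, 11382301 to 11399665) had 123, 83.3 and 13.5 CPM under the Ythdf3-/- label, against 137 and 164 CPM under the WT label. The groups did not overlap, and the log2 fold change of -1.13 (SE 0.88) was -0.63 without the library labelled Ythdf3-/- 3. Sars (serine) had 732, 895 and 1377 counts against 1961 and 89. Its log2 fold change of 1.03 (SE 0.99) was 0.18 with WT library 2 left out and 3.64 with WT library 1 left out. That of Qars, 1.76 (SE 1.65), was 3.83 with WT library 2 left out, 0.94 with WT library 1 left out and -0.76 with the replicate number as a block. The last fit takes nothing from the library labelled Ythdf3-/- 3, which has no partner under the block.

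Farsa and Farsb encode the 2 kinds of subunit of 1 enzyme, cytosolic phenylalanyl-tRNA synthetase, and their count ratio lay between 3.27 and 5.04 in 4 libraries. Farsa (chromosome 8, 84856989 to 84869257) had 227, 574 and 336 CPM under the Ythdf3-/- label, against 329 and 21.2 CPM under the WT label. Farsb (chromosome 1, 78417975 to 78488897) did not show the same low value in the library labelled WT 2. The counts of Farsa over those of Farsb were 3.27, 5.04 and 4.397 under the Ythdf3-/- label, against 3.93 and 0.177 under the WT label. Per kilobase of exon the same ratios were 3.94, 6.07 and 5.30 against 4.73 and 0.213. The log2 fold change of Farsa, 1.06 (SE 0.94, edgeR adjusted p = 0.9998), was 0.18 with WT library 2 left out and 4.04 with WT library 1 left out. Farsb shares 248 exon bases with Sgpp2.

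**Figure D4:**
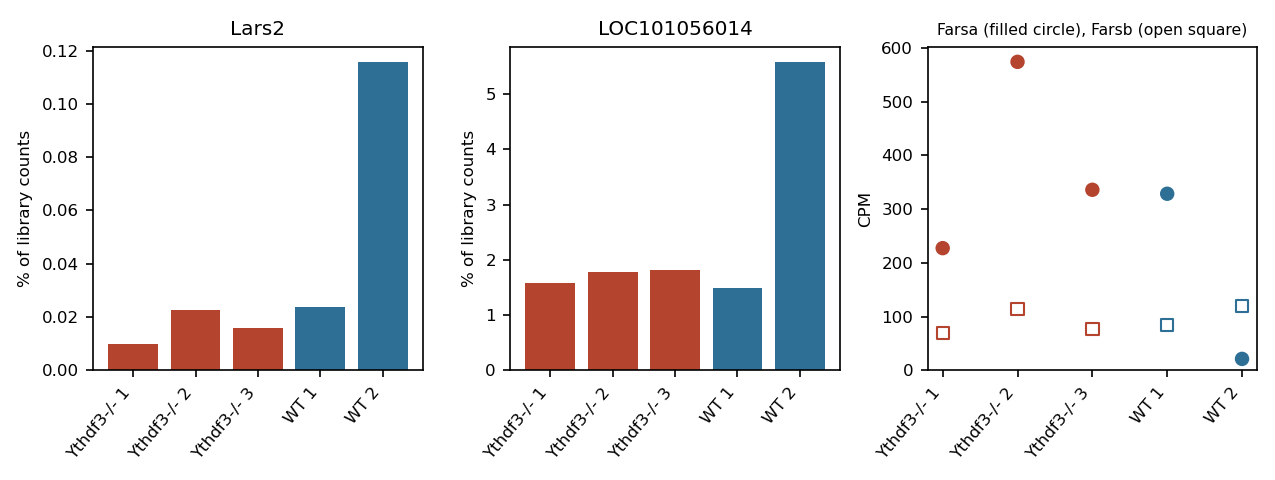
Share of each library's counts taken by Lars2 (left) and by LOC101056014 (middle), and CPM of Farsa and Farsb (right), with libraries labelled Ythdf3-/- in red and those labelled WT in blue. The library labelled WT 2 is highest for Lars2 (0.116%) and LOC101056014 (5.57%), and is the 1 library where Farsa lies below Farsb.

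Summed over the class, the cytosolic enzymes lay higher in every library labelled Ythdf3-/- than in either labelled WT. The 20 genes together had 2695, 2828 and 2595 CPM under the Ythdf3-/- label, against 2227 and 2168 CPM under the WT label. The means were 2706 ± 117 CPM (SD, n = 3) and 2197 ± 41.8 CPM (SD, n = 2), and the groups did not overlap under any of 4 scalings. These scalings were library totals, TMM, RLE and upper quartile, of which the last 3 were added after seeing the data, as was the sum without Lars2. All use the same counts. Among single genes, 9.74% of all tested lay higher under the Ythdf3-/- label without overlap. Of the 20 cytosolic genes 10 were fitted higher and 10 lower. The difference of 508 CPM became 366 CPM when scaled by TMM. The summed markers of some other cell types were ordered by label in the same way, and those of others were not. The 10 monocyte and macrophage markers summed to 1189.5, 820 and 1011 CPM under the Ythdf3-/- label, against 609 and 466 CPM under the WT label, with counts for 6, 7 and 8 of them against 8 and 5. Of these sums Lyz2 alone gave 1004, 672 and 614 CPM against 434 and 416 CPM. The 8 T and NK markers summed to 93.1, 92.9 and 30.5 CPM against 2.28 and 10.4 CPM, with counts for 2, 3 and 4 of them against 2 and 3. Apart from 1 count of Cd3e, these sums came from Nkg7, Klrb1c and Lck. No read was counted for Cd3d, Cd3g, Cd4 or Cd8a in any library. Nkg7 had 313, 412 and 8 counts against 14 and 19, and Klrb1c 0, 327 and 115 against 24 and 1, both with overlap. Lck had 279, 104 and 90 counts against 0 and 73, without overlap. The 8 megakaryocyte and platelet markers went the other way, with 169.6, 200.3 and 158.1 CPM against 310.5 and 211.4 CPM. For the erythroid, B lymphoid and neutrophil markers the sums overlapped between the labels. The part of other cell types in the cytosolic sum was not tested. Without Farsa, a choice made after its values were seen, the difference in the cytosolic sum was 304 CPM by library totals. The groups then overlapped under the TMM, RLE and upper-quartile scalings. The 17 mitochondrial genes had 886, 819 and 783 CPM against 899 and 1612 CPM. Of the last value Lars2 made up 71.7%, and in the other 4 libraries it made up between 11.1% and 27.5% of the class. Without Lars2 the mitochondrial sum was 787, 594 and 623 CPM under the Ythdf3-/- label, against 660 and 456 CPM under the WT label, and the groups overlapped. The cytosolic sum over the mitochondrial sum was 3.04, 3.45 and 3.32, against 2.48 and 1.34. Without Lars2 the same ratio was 3.42, 4.76 and 4.16, against 3.38 and 4.75, and its means were 4.12 ± 0.67 (SD, n = 3) and 4.06 ± 0.97 (SD, n = 2).

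**Figure D5:**
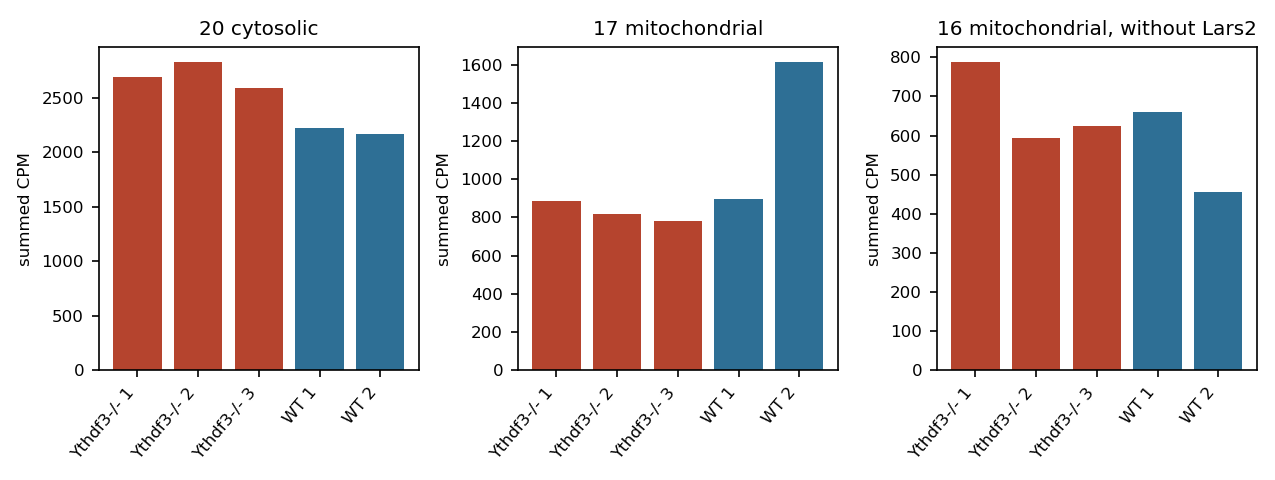
Summed CPM of the cytosolic synthetases (left), of the mitochondrial ones (middle) and of the mitochondrial ones without Lars2 (right) in each library, red for the Ythdf3-/- label and blue for the WT label; each panel starts at 0 and has its own scale. The cytosolic sums under the Ythdf3-/- label, 2595 to 2828 CPM, all lie above those under the WT label, and the high mitochondrial bar of the library labelled WT 2, 1612 CPM, is 456 CPM without Lars2.

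For each amino acid the 2 enzymes were also set against each other per kilobase of exon (exon lengths from GENCODE M21), since longer messages draw more reads. In 6 of 17 pairs the cytosolic message was the higher one in all 5 libraries, among them Farsa over Fars2, Nars over Nars2, Vars over Vars2, and Eprs over both Ears2 and Pars2. A library with 0 counts of the mitochondrial message was taken as cytosolic higher. This applied to Fars2 and Pars2 in the library labelled WT 2 and to Vars2 in that labelled Ythdf3-/- 3. Ears2 had 2 counts in the library labelled WT 2. Lars2 was the 1 mitochondrial message that lay above its cytosolic partner, Lars, in every library, with ratios of Lars to Lars2 of 0.852, 0.249 and 0.0753 under the Ythdf3-/- label, against 0.429 and 0.0198 under the WT label. The other 10 pairs changed order between libraries. Iars to Iars2 ran from 0.0554 to 50.5 between libraries of the same label, and Tars to Tars2 from 0.144 to 1.502. Per kilobase the highest means over all libraries were those of Farsa (163 CPM per kilobase), Kars (146), Lars2 (96.4) and Dars (82.3). The ranks of neighbours in that order differed between libraries. For Mars2 the value depends on the annotation, which gives its exons 11.3 kilobases.

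The multisynthetase complex gave a subset of the cytosolic class. Of its 8 enzyme genes (Dars, Eprs, Iars, Kars, Lars, Mars, Qars and Rars) 3 had a range of at least 10-fold, Iars, Mars and Qars, against 8 of the 12 cytosolic genes outside it. These shares were 37.5% and 66.7%, beside 59.3% of all genes tested and 45.1% within the cytosolic range of mean CPM. The median mean CPM was 108 inside the complex and 92.0 outside it, and the difference in range was not tested. The median log2 fold change was 0.12 inside the complex and 0.24 outside it, and 0 genes passed the edgeR test in either set. Class I synthetases, which share one catalytic fold, had 14 of 18 genes (77.8%) with such a range or a library with 0 counts. Class II synthetases, which share another, had 11 of 18 (61.1%). The classes differ in level, with a median mean CPM of 53.5 for class I and 83.9 for class II, and this difference in range was not tested either. The complex's scaffold gene Aimp2 had 983, 1286 and 1257 counts under the Ythdf3-/- label, against 1491 and 1358 under the WT label. Aimp1 had 698, 770 and 406 counts against 980 and 1546. Eef1e1 had 361, 409 and 113 counts against 860 and 1976, with a log2 fold change of -1.90 (SE 0.93, edgeR adjusted p = 0.983) that was -0.43 without the library labelled WT 2. None of the 3 scaffold genes passed, and their directions differed.

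Among the other factors of tRNA supply, Mtfmt had the smallest p and a larger fold change than any synthetase described here. Mtfmt encodes the enzyme that formylates methionine on the mitochondrial initiator tRNA after Mars2 has charged it. Its counts were 311, 809 and 426 under the Ythdf3-/- label, against 13 and 2 under the WT label. In CPM these were 66.3 ± 20.7 (SD, n = 3) and 0.502 ± 0.394 (SD, n = 2), a log2 fold change of 6.92 (SE 1.81). The edgeR test did not call it (adjusted p = 0.964), DESeq2 did (adjusted p = 1.80e-05), and without any 1 library the log2 fold change stayed between 6.35 and 7.997. The pattern of Mars2 was another one: the library labelled Ythdf3-/- 2, with the most Mtfmt, had 1 count of it. Over the 19 genes of this list (other steps of tRNA supply and the eukaryotic elongation factor 1 subunits) 0 passed the edgeR test, 1 was higher and 0 were lower at an unadjusted p under 0.05, beside 2.11% and 2.75% of all genes tested, and the median log2 fold change was 0.54. Lcmt2, a tRNA modification enzyme, had 338, 792 and 998 counts against 466 and 13, with a log2 fold change of 2.61 that was 1.72 with WT library 2 left out and 5.87 with WT library 1 left out. Eef1g, a subunit of the exchange factor that recycles the carrier of charged tRNA, had 4804, 6692 and 5226 counts against 15536 and 9130. In CPM that was 746 ± 9.22 (SD, n = 3) against 976 ± 60.1 (SD, n = 2), a small difference without overlap (log2 fold change -0.48, SE 0.26, edgeR adjusted p = 0.9998).

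Factors of mitochondrial translation, which use the products of the mitochondrial synthetases, had 8 of 16 genes fitted higher and 8 lower, a median of 0.011 and 0 passing the edgeR test. Gfm1, the mitochondrial elongation factor G1, had 0, 2 and 1 counts under the Ythdf3-/- label, against 25 and 112 under the WT label (log2 fold change -5.79, SE 2.66, edgeR adjusted p = 0.983). With WT library 2 left out its log2 fold change was -3.50, and with WT library 1 left out it was -6.61. Mtif2, the mitochondrial initiation factor 2, had 215, 360 and 285 counts against 1614 and 1019, a log2 fold change of -1.56 (SE 0.81, edgeR adjusted p = 0.983) with groups that did not overlap. Mterf4, needed for assembly of the mitochondrial ribosome, had 138, 4 and 194 counts against 2 and 7. The groups did not overlap for 5 of the 16 genes, 2 higher and 3 lower, beside 9.74% and 11% of all genes tested.

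The amino acid response is the programme that acts on cytosolic synthetases through the TGATGNAA core. The list for it held ATF4 targets together with the kinases of the translation factor eIF2alpha, and so not ATF4 targets alone. Values lay on both sides of 0: of 23 tested genes of the 30 listed, 10 were fitted higher and 13 lower. The median log2 fold change was -0.23 and 0 passed the edgeR test. Phgdh, the first enzyme of serine synthesis, had 3383, 5047 and 2903 counts under the Ythdf3-/- label, against 4475 and 837 under the WT label. That gave 501 ± 76.2 CPM (SD, n = 3) against 181 ± 124 CPM (SD, n = 2), and a log2 fold change of 1.40 (SE 0.50, edgeR adjusted p = 0.964) that was 0.86 with WT library 2 left out and 2.30 with WT library 1 left out. Psat1, the next enzyme of that pathway, had 443, 600 and 197 counts against 2976 and 459, with a log2 fold change of -1.14 that was -0.029 with WT library 1 left out. Eif2ak2, the kinase PKR, is listed as a kinase of eIF2alpha, and had 186, 1 and 197 counts against 14 and 8. Atf4 itself had 293, 945 and 908 counts against 1432 and 1062, with a log2 fold change of -0.23 (SE 0.71). In CPM it was lowest in the library labelled Ythdf3-/- 1, at 46.1 CPM. The 5 synthetases that carry the core in their promoters, shown above, were not all lowest in the same library. Gars (with a range of 2.16 times), Iars and Yars were lowest in that labelled Ythdf3-/- 1, and Aars and Tars in that labelled Ythdf3-/- 3. A link of these levels to Atf4 was not tested. The log2 fold changes of the 5 synthetases were -0.13 for Aars, 0.56 for Gars, 1.47 for Iars, -1.13 for Tars and -0.09 for Yars, with SE from 0.77 to 2.06. With 1 library left out the value for Aars lay between -2.39 and 0.69, that for Iars between -0.17 and 4.61, and that for Yars between -1.22 and 0.59.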

How the data were processed

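Gene counts for 5 libraries, 3 labelled Ythdf3-/- and 2 labelled WT, were taken as the authors deposited them, as raw counts per gene symbol. The submitters' processing notes name mm10 as build, with HISAT2 (2.2.1) and HTSeq (0.12.4) as tools. For the annotation, strand setting and multi-mapped reads, the choices made were not given in the sources used here. Of the 37 synthetases 11 share exon bases with another gene in GENCODE M21 (mm10), and 14 share at least 60 bases at 95% identity or more with another transcript (BLAST), so their counts are less certain. Intervals and the limit set by 0 counts (3 counts) cover counting error alone, since reads are not independent molecules.

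In R 4.3.3, edgeR 4.0.16 tested label Ythdf3-/- against WT over 11146 genes, with Benjamini-Hochberg adjustment at 0.05. It used the default expression filter, TMM scaling, the robust quasi-likelihood fit and no covariate. The code was also run on simulated data, which is not used here as a measure of what size of change could be called. SE is the log2 fold change over the square root of F. Alternatives were DESeq2 1.42.0, limma 3.58.1 (voom), other scalings and filters, the replicate number as a block, and libraries left out. CPM is a count per 1000000 of the library's total.

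The members and lists were chosen with earlier results of these data known. Values are given for the 5 genes of each class with the smallest p, the 3 with the highest mean, genes with a 0, those with special roles (Eprs, Farsa, Farsb, Kars, Gars), and the 3 smallest p of each other list; further genes named are examples chosen after their values were seen. Gene spans are from GENCODE M21. Results of 1 member are not reported here, though it is counted in the class totals.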

Additional observations from a re-analysis of the deposited data

How the results depend on the processing

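The count of synthetases passing, 0 with edgeR, was 1 with DESeq2 and 1 with no filter (Lars2 both times) and 0 under the other alternatives. Over all genes the count was 259 with DESeq2, 21 with no filter, 7 without the libraries labelled Ythdf3-/- 2 and 3, and 0 to 1 without any 1 library. The cytosolic median log2 fold change, 0.12, was -0.17 with voom, -0.16 with the replicate block, 0.44 without the libraries labelled WT 2 and Ythdf3-/- 1, and 0.084 to 0.49 without any 1 library. The mitochondrial one, 0.47, was -0.036 without the libraries labelled Ythdf3-/- 2 and 3, and -0.64 (without that labelled Ythdf3-/- 1) to 0.43 without any 1 library. Whether same-numbered libraries belong together is not in the labels used here. Same-numbered ones deviated with correlations of -0.0043 and 0.0095. Deviations of the libraries labelled WT 1 and WT 2 mirror each other, so these correlations cannot decide whether the numbers carry a pairing. With the block 9 of the 37 synthetases had the other sign, Qars (-0.76) among them, and 0 genes passed (285 at an unadjusted p under 0.05, against 541 without it). Replicate number 3 occurs under the Ythdf3-/- label alone, so with the block that library adds nothing to the contrast between labels. The sign of 18 of the 37 differed without some 1 library. Genes with such a change included Farsb (-0.59 to 0.017), Fars2 (-1.03 to 10.70), Vars2 (-3.69 to 4.55), Aimp1 (-1.16 to 0.48) and Aimp2 (-0.066 to 0.79). Without the libraries labelled Ythdf3-/- 2 and 3 it differed for 14 of the 37, Eprs (0.11), Gars (-0.27), Fars2 (-5.35) and Yars2 (-10.70) among them, and without those labelled WT 2 and Ythdf3-/- 1 for 8 of the 37, Farsb (0.12) and Vars2 (5.04) among them, and for Aimp1 (0.22). With limma voom 6 of the 37 had the other sign, and with library totals 2. The cause was not tested. Fits that leave 1 library under a label assume that it varies like the others. The SE of the log2 fold change ran from 0.38 (Kars) to 3.001 (Vars2), which limits what 5 libraries of 30 cells can show.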
